A study of Mus musculus with 22 samples.

Results

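The 10 Sox genes described here are Sox2, Sox4, Sox5, Sox6, Sox7, Sox9, Sox10, Sox11, Sox17 and Sox18. They were chosen by symbol, with their levels by group and by genotype in CRC allografts already known. They are 10 of the 23993 gene symbols in the first deposited table and of the 23490 in the second, and each had 1 row in both. The other 10 mouse Sox genes in both tables (Sox1, Sox3, Sox8, Sox12, Sox13, Sox14, Sox15, Sox21, Sox30 and Sry) serve for comparison. Because the 10 were chosen by their levels and differences, both are described for them without p-values.

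SOX proteins bind the minor groove of DNA through a high mobility group domain and bend it, usually beside a partner factor. The family is split by sequence into groups. Sox2 (SoxB1) maintains pluripotent and neural stem cells, and Sox4 and Sox11 (SoxC) act in embryonic progenitors and in epithelial to mesenchymal transition. Sox9 and Sox10 (SoxE) direct cartilage and neural crest development and mark mammary progenitor cells, with Sox5 and Sox6 (SoxD) as cofactors of Sox9 in cartilage. Sox7, Sox17 and Sox18 (SoxF) act in endothelium.

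Poly(A) RNA was sequenced from mammary cells of nulliparous female C57Bl/6 mice, all with 1 mutant Trp53 allele and an MMTV-Cre transgene, which is driven by a promoter active in mammary epithelium. In addition they carried 2 conditional Brca1 alleles (Brca1fl11/fl11, here Brca1hom), 1 (Brca1fl 11/WT, here Brca1het), or the tetracycline-operator CYP19A1 transgene under MMTV-rtTA (here CYP19A1, aromatase). No group had intact Trp53, and ages are not given. The extraction protocol names homogenised mammary glands for every library, cultures included, so how the cultures were harvested is not given. Cells were grown by conditional reprogramming (CRC) or in a mammary-optimised medium (EpiC). The first table held 7 CRC allografts (1, 2 and 12 Brca1hom, 10B, 10C and 11C Brca1het, 6C CYP19A1), 3 EpiC allografts (4C and 5A Brca1het, 7B CYP19A1), and 3 CRC and 3 EpiC cultures, 1 of each genotype. Allografts grew in mammary glands of NU (NCr)-Foxn1nu mice, which lack a thymus but supply vessels and myeloid cells. The second table held 2 CRC cultures and 2 EpiC cultures of cancers beside the 2 primary Brca1het cancers they came from, which may be from 1 animal. Nothing in the labels says that the replicates are separate animals or cultures; a p-value here reflects only how these libraries varied, and that variation may be technical.

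Levels are given in FPKM, which divides fragment number by transcript length and library size, and depth is unknown. FPKM sums ran from 466441 to 825216 in the first table and from 607519 to 1.61593e+06 in the second. The CRC culture of cancer 2 had the highest sum, and the other libraries of the second table had at most 710511. Levels are given without rescaling for these sums. Whole-gene Brca1 lay at 3.21 to 5.26 FPKM in the 3 Brca1hom allografts and 2.02 to 5.61 FPKM in the 5 Brca1het allografts; this value covers exons outside the conditional part and does not check the labels. The EpiC culture of Brca1hom cells stood apart: the epithelial genes Krt8 and Epcam were at 0.275 and 0.208 FPKM there. Epcam was also low in the allografts, at a median of 1.33 FPKM in CRC allografts and 3.01 FPKM in EpiC allografts, against 264 FPKM in CRC cultures. Summed FPKM of 10 fibroblast markers was 1396 to 4917 in CRC allografts, 686.5 to 3627 in EpiC allografts, 30.2 to 56.8 in CRC cultures and 3381 to 6379 in EpiC cultures. The sum of 8 macrophage markers was 3858 to 12743 in the allografts and at most 55.3 in the cultures. In such bulk samples fewer cells of a type and less RNA per cell cannot be told apart, and the part of these markers in the Sox levels was not tested.

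The windows of 250 bases before the start of the Sox2, Sox4 and Sox11 genes are shown because these single-exon genes carry the stem-cell and SoxC results below. Sequences are from RefSeq (GRCm38.p6; the expression files used mm9), which gave windows for 5 of the 10 genes. Bases just past the start were sought in transcripts of the GENCODE annotation. They were found there for Sox4 but not for Sox2 and Sox11, so the starts of these 2 genes rest on RefSeq alone. Capitals mark ACAAAG or ACAATG, core words of SOX sites, sought on both strands.
Sox2 (chr3:34649745-34649994, plus strand): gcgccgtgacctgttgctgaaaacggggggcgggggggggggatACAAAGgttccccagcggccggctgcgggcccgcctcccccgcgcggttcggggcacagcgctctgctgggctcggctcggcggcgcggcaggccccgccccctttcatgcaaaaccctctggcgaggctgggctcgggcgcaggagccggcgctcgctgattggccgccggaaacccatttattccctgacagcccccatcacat
Sox4 (chr13:28953700-28953949, minus strand): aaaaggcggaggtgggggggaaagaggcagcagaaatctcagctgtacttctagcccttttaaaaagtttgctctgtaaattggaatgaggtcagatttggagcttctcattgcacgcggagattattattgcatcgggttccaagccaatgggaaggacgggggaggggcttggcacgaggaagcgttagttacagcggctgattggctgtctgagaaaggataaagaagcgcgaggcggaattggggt
Sox11 (chr12:27342719-27342968, minus strand): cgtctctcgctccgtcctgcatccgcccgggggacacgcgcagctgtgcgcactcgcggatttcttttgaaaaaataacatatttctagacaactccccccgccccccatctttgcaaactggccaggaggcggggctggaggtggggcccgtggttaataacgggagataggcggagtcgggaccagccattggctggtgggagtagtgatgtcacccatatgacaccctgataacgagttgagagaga
The Sox2 window holds 1 ACAAAG, which begins 206 bases before the start, and the Sox4 and Sox11 windows hold neither word. Either word occurs in 25.2% of 32851 such windows. GC content is 72% for Sox2, 50.8% for Sox4 and 58% for Sox11, against a median of 52.4%.

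The 10 genes fell into tiers of abundance. Sox4 and Sox9 reached 1 FPKM in every library of both tables. Sox6 and Sox10 never did in the first table, nor Sox2 and Sox17 in the second. The other 6 of each table reached it in some libraries. A mean of at least 1 FPKM, needed to enter a test, was passed by 4 of the 10 in the cultures, 5 in the allografts, 6 over the 16 cultures and allografts, and 4 in the second table. Sox7 reached 1 FPKM in 12 of the 16 libraries of the first table and in all 4 groups, and Sox18 in 10, which were the allografts. Sox4 and Sox9 are thus the members that every library held at this level.

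The tests counted the 10 as follows, with a gene called where the limma adjusted p was under 0.05. Nothing is read from these counts, since the genes were chosen by the same levels. In addition, Sox2, Sox11 and Sox18 passed the filter through the groups where they are high, for Sox2 the Brca1het CRC allografts. In cultures by medium 1 of 4 was called (Sox11), where 23.2% of 11837 genes were called, and leaving out any 1 culture took that count to 0. In allografts by medium limma called 0 of 5, with 3 at an unadjusted p under 0.05, where 0.00833% of 11999 genes were called and 8.43% had such a p. Between CRC allografts and CRC cultures 3 of 6 were called (Sox9, Sox11 and Sox18), beside 39.6% of 12325 genes. Between EpiC allografts and EpiC cultures 2 of 6 were called (Sox9 and Sox18), beside 14.2%. For the difference between these differences it was 1 of 6 (Sox9), beside 12.2%. By Brca1 genotype limma called 0 of 5, with 2 at an unadjusted p under 0.05. There 0% of 11928 genes were called and 10.4% had such a p.

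**Figure D1:**
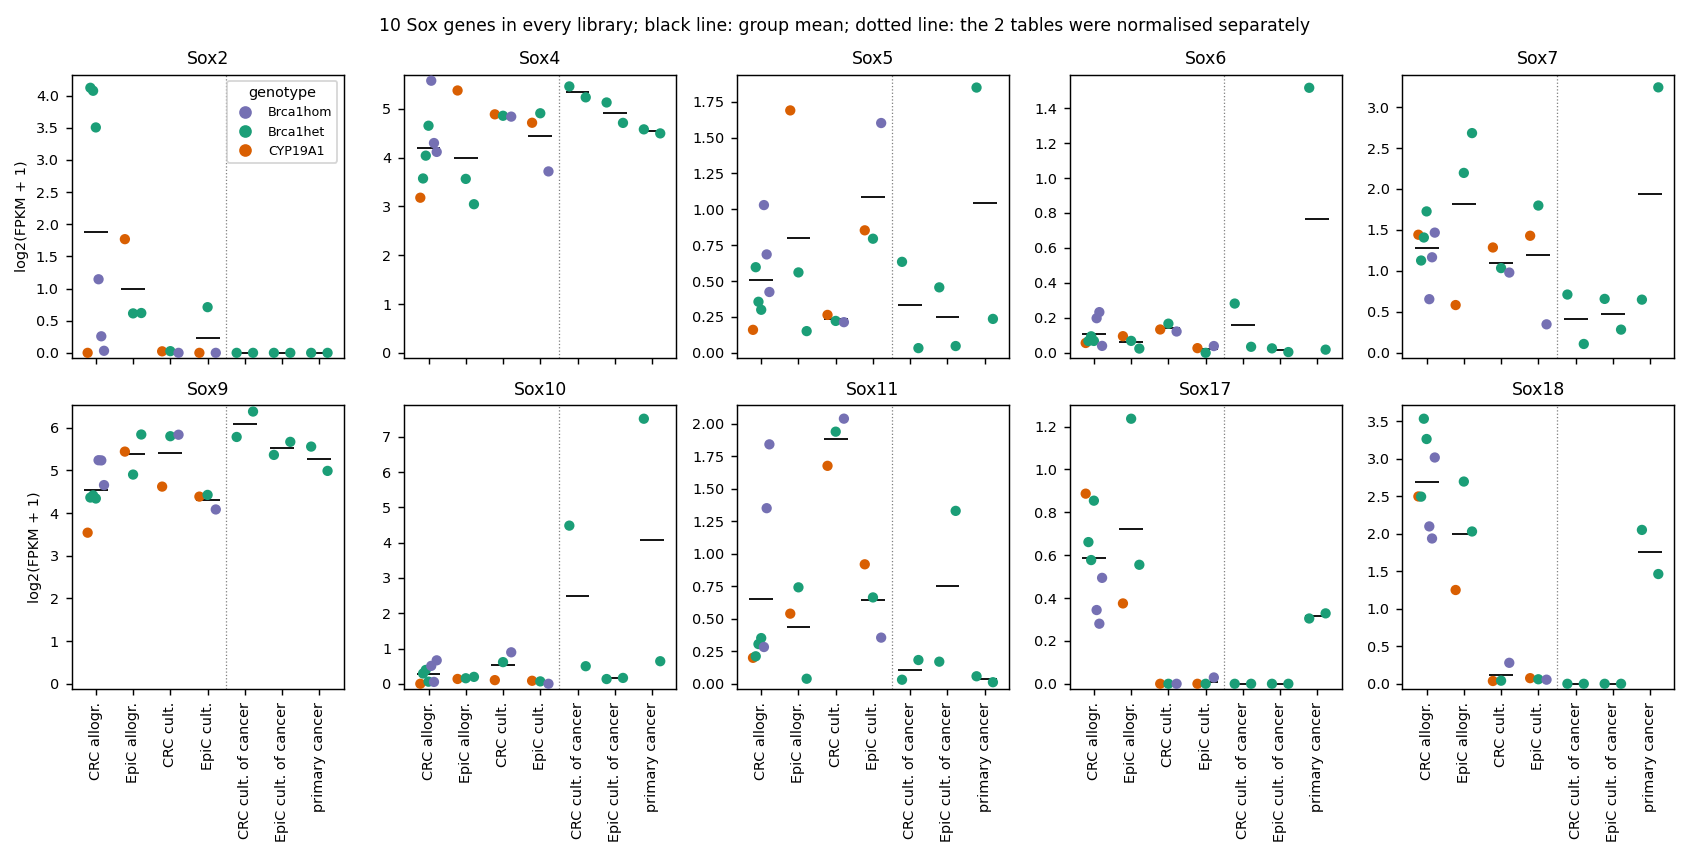
Level of each of the 10 Sox genes (y axis, log2(FPKM + 1)) in every library, by group along the x axis; points are libraries coloured by genotype and black lines are group means. Sox4 and Sox9 are high throughout, and Sox18 and Sox17 stand above the cultures in allografts and cancers. Sox10 is highest in primary cancer 1 (181.6 FPKM), with 21.4 FPKM in the CRC culture of that cancer. Sox2 is highest in the 3 Brca1het CRC allografts (10.3 to 16.4 FPKM).

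Sox2 was abundant in a single set of libraries, the CRC allografts of Brca1het cells. It stood at 1.21, 0.195 and 0.0225 FPKM in Brca1hom CRC allografts 1, 2 and 12, against 16.4, 15.8 and 10.3 FPKM in Brca1het CRC allografts 10B, 10C and 11C. It was 0 in the CYP19A1 CRC allograft 6C. The Brca1hom and Brca1het groups did not overlap. The log2 difference, Brca1hom minus Brca1het on the log2(FPKM + 1) scale, was −3.42 (SE 0.34, n = 3 and 3). In size it ranked 13th of 11928 genes, which is a description only. Sox2 was chosen with this difference known and passed the filter through the Brca1het allografts. No gene was called for genotype (limma, adjusted p under 0.05), which is 0% of those tested, while 1246 genes, or 10.4%, had an unadjusted p under 0.05. Without CRC allograft 1, the Brca1hom library with the highest Sox2, 26 genes were called. Labels do not say whether 10B and 10C share an animal.

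The genotype difference was seen in grafts of 1 medium, since Brca1hom had no EpiC allograft. Brca1het EpiC allografts 4C and 5A had 0.530 and 0.536 FPKM of Sox2, and the CYP19A1 EpiC allograft 7B had 2.40 FPKM. In the cultures Sox2 was nearly silent: it was at most 0.0184 FPKM in the 3 CRC cultures and 0, 0.636 and 0 FPKM in the CYP19A1, Brca1het and Brca1hom EpiC cultures. It was listed at 0 in all 6 libraries of the second table. CRC minus EpiC allografts gave a log2 difference of 1.80 (SE 0.80, genotype in the model), with overlap. It was 3.28 without CYP19A1 allograft 6C or without 7B, since the remaining CYP19A1 allograft then adds nothing to the contrast of media. Against CRC cultures, CRC allografts differed by 1.81 (SE 0.72).

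Sox2ot, a noncoding RNA gene that spans Sox2, had at most 0.0163 FPKM in the Brca1hom CRC allografts, against 0.292, 0.226 and 0.375 FPKM in Brca1het CRC allografts 10B, 10C and 11C, and at most 0.0221 FPKM in every other library of the first table. Strand use in the counting is not given, so reads of the pair cannot be told apart. Of 11 pluripotency genes listed as partners of Sox2, 2 were tested in the genotype comparison; limma called 0, and 0 had an unadjusted p under 0.05, with a median log2 difference of −0.57, beside −0.01 over all genes tested. Klf4, a reprogramming factor, averaged 19.0 ± 5.6 FPKM in CRC allografts and 17.7 ± 8.5 FPKM in EpiC allografts (SD, n = 7 and 3).

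**Figure D2:**
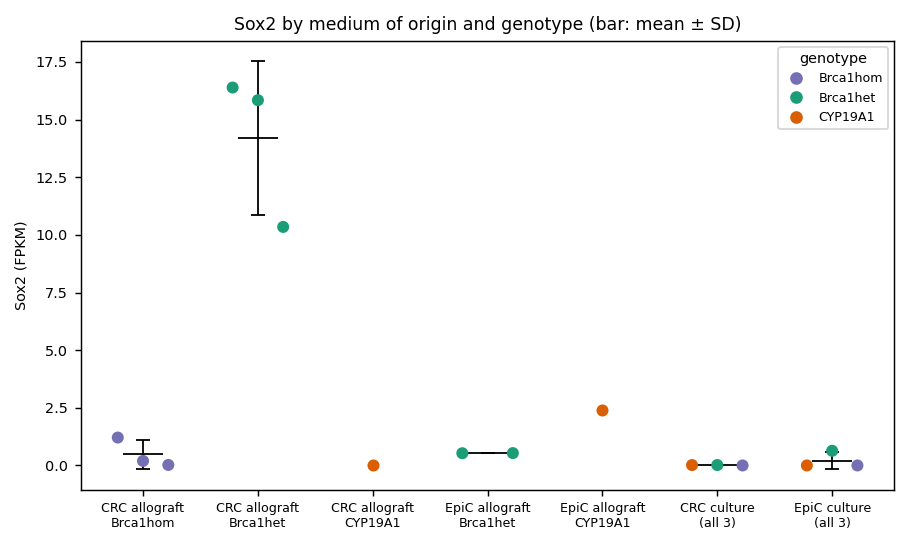
Sox2 level (y axis, FPKM) by medium of origin and genotype; points are libraries and bars are mean ± SD where a group has more than 1. The 3 Brca1het CRC allografts lie at 10.3 to 16.4 FPKM, and every other library is at or below 2.40 FPKM.

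Of the SoxC genes, Sox4 was present throughout, and in the first table Sox11 was highest in CRC cultures. Sox11 stood at 2.20, 2.84 and 3.12 FPKM in the CYP19A1, Brca1het and Brca1hom CRC cultures, and at 0.892, 0.585 and 0.279 FPKM in the EpiC cultures of the same genotypes. The groups did not overlap, and every genotype had more in CRC. The log2 difference was 1.24 (SE 0.28). Cultures of the cancers did not share this order. They had 0.0219 and 0.135 FPKM in CRC and 0.125 and 1.52 FPKM in EpiC, against 0.041 and 0.00849 FPKM in primary cancers 1 and 2.

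In allografts Sox11 was mostly lower. It was 0.149 to 0.276 FPKM in 5 of the 7 CRC allografts; the exceptions were the Brca1hom allografts 2 and 12, at 1.55 and 2.59 FPKM. EpiC allografts 7B, 4C and 5A had 0.454, 0.673 and 0.0273 FPKM. The difference was −1.27 (SE 0.34) for CRC allografts against CRC cultures and −0.04 (SE 0.41) for EpiC allografts against EpiC cultures. The difference between these differences was −1.22 (SE 0.53). Allograft 12 overlapped the CRC cultures.

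Sox4 lay between 7.26 and 46.7 FPKM in the first table. It averaged 20.1 ± 12.9 FPKM in CRC allografts, 19.5 ± 18.3 in EpiC allografts, 28.1 ± 0.48 in CRC cultures and 22.2 ± 8.9 in EpiC cultures (SD, n = 7, 3, 3 and 3). All these groups overlapped. The 3 CRC cultures were nearly equal, at 27.7 to 28.6 FPKM, while the allografts spread widely: CRC allograft 1 and EpiC allograft 7B had 46.7 and 40.5 FPKM, and CRC allograft 6C and EpiC allograft 5A had 8.06 and 7.26 FPKM. In the EpiC cultures the lowest value, 12.2 FPKM, was that of the Brca1hom culture that lacked epithelial genes. Cultures of the cancers had 43.0 and 36.7 FPKM in CRC and 34.04 and 25.2 FPKM in EpiC, against 22.9 and 21.6 FPKM in primary cancers 1 and 2. The cultures of both kinds lay above the cancers. So did 16.5% of 12386 genes in the CRC cultures and 22.6% of 12293 genes in the EpiC cultures. The CRC culture of cancer 2 has the high FPKM sum given above.

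The SOXC target list held 4 measured genes. Of 3 tested between CRC allografts and CRC cultures, Tead2, a Hippo pathway transcription factor, rose, at 42.6 ± 11.6 FPKM in CRC allografts and 20.5 ± 2.4 FPKM in CRC cultures (SD, n = 7 and 3). The neuronal tubulin Tubb3 averaged 8.35 ± 4.19 FPKM in CRC allografts and 10.3 ± 2.1 FPKM in CRC cultures, and did not pass. The median over the 3 was −0.50 log2 units, beside 0.04 over all genes tested.

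Sox9 was higher in CRC than in EpiC libraries in dishes, and lower on average in grafts. It stood at 23.6, 54.8 and 56.1 FPKM in the CYP19A1, Brca1het and Brca1hom CRC cultures, against 19.9, 20.5 and 15.98 FPKM in the EpiC cultures. In grafts it ran from 10.6 to 36.8 FPKM, with a median of 20.3 FPKM, in the 7 CRC allografts, against 42.4, 28.9 and 56.4 FPKM in EpiC allografts 7B, 4C and 5A. In culture the media did not overlap and CRC was higher. In allografts they overlapped, and the EpiC mean of 42.6 ± 13.7 FPKM exceeded the CRC mean of 23.9 ± 9.6 FPKM (SD, n = 3 and 7).

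On the log2 scale, Sox9 in CRC allografts minus CRC cultures was −0.998 (SE 0.31) and in EpiC allografts minus EpiC cultures was 1.23 (SE 0.37). The difference of these differences was −2.23 (SE 0.48). CRC minus EpiC gave 1.12 (SE 0.34) in cultures and −1.26 (SE 0.31) in allografts.

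By genotype, Sox9 was 36.8, 36.7 and 24.2 FPKM in Brca1hom CRC allografts 1, 2 and 12, against 19.6, 20.3 and 19.3 FPKM in Brca1het CRC allografts 10B, 10C and 11C. These did not overlap, and the CYP19A1 CRC allograft 6C was lowest, at 10.6 FPKM. The log2 difference was 0.67 (SE 0.23). Of the 11928 genes tested, 9.43% lay wholly above and 9.93% wholly below in Brca1hom; of the 10 Sox genes, filtered or not, 1 (Sox9) lay above and 2 (Sox2 and Sox17) below.

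**Figure D3:**
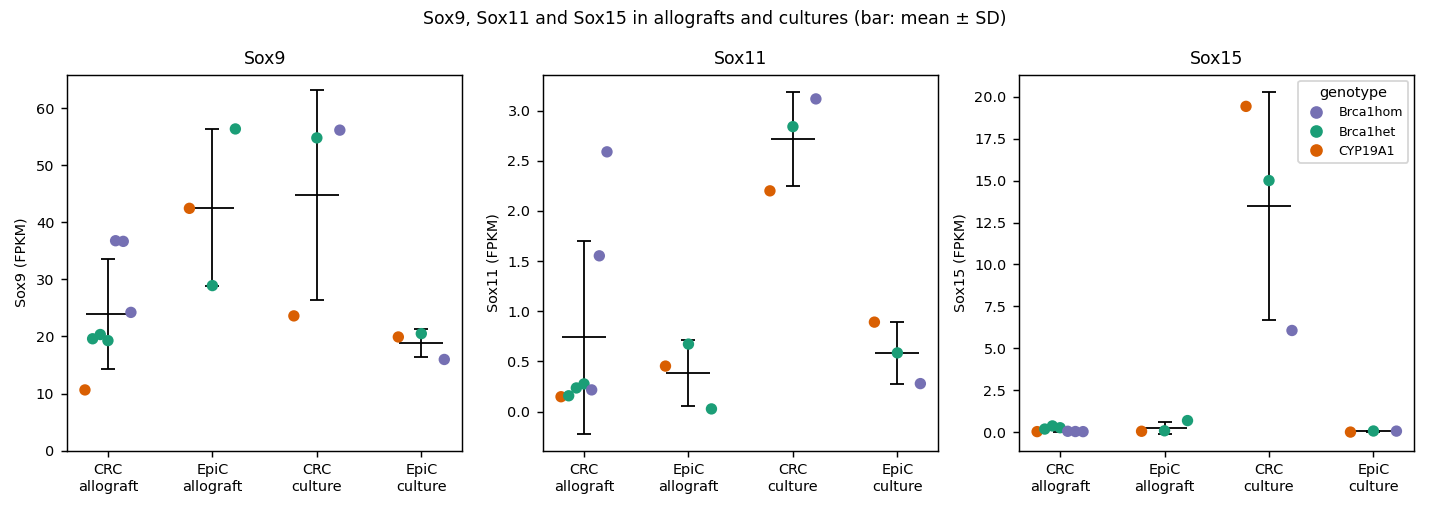
Levels (y axes, FPKM) of Sox9, Sox11 and Sox15 in CRC and EpiC allografts and cultures; points are libraries coloured by genotype and bars are mean ± SD. Sox9 averages 44.8 FPKM in CRC and 18.8 FPKM in EpiC cultures, but 23.9 FPKM in CRC and 42.6 FPKM in EpiC allografts, and Sox15 is at 6.06 FPKM or more in CRC cultures only among these groups.

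Genes known to work with SOX factors in mammary epithelium and in mesenchymal transition moved in both directions. Of 13 such genes, 11 were tested in the cultures, where 1 rose and 4 fell in CRC, beside 23.2% of all genes tested called there. Notch1 averaged 27.2 ± 15.9 FPKM in CRC cultures and 2.13 ± 0.95 FPKM in EpiC cultures. The transition factors Snai1, Zeb2, Twist1 and Zeb1 were the 4 that fell; Zeb1 averaged 0.387 ± 0.107 FPKM in CRC cultures and 9.13 ± 3.02 FPKM in EpiC cultures (SD, n = 3 each). Snai2 (Slug), which acts with Sox9 in mouse mammary stem cells, was at 24.7 ± 4.3 and 25.4 ± 12.1 FPKM in CRC and EpiC cultures and was not called. Between CRC allografts and CRC cultures 6 of 11 rose and 3 fell, beside 39.6% of all genes tested. There Snai2 fell while Zeb1 rose, at 6.85 ± 3.93 and 25.3 ± 4.4 FPKM in CRC allografts, against 24.7 ± 4.3 and 0.387 ± 0.107 FPKM in CRC cultures (n = 7 and 3). In EpiC cultures these values stand beside the high fibroblast sum given above, of whose markers 8 of the 9 tested fell in CRC, with or without the Brca1hom EpiC culture. In CRC cultures 4 of 6 basal mammary markers rose (Krt5, Krt17, Krt14 and Trp63), also without that culture.

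Cartilage targets of SOX9 were mostly near 0 in the first table. Of 10 measured, 2 were tested, and Acan, the cartilage proteoglycan aggrecan, was the 1 that rose in both kinds of allograft. It averaged 47.9 ± 20.5 FPKM in CRC allografts and 31.1 ± 44.1 FPKM in EpiC allografts, against 0.0941 ± 0.102 FPKM in CRC cultures and 0.741 ± 0.645 FPKM in EpiC cultures (SD, n = 7, 3, 3 and 3). Col9a2, a cartilage collagen chain, stayed near 0 in the same libraries, with group means of at most 0.0698 FPKM.

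Sox10 was a gene of primary cancer 1. It stood at 21.4 FPKM in the CRC culture and 0.0981 FPKM in the EpiC culture of cancer 1, against 181.6 FPKM in primary cancer 1 itself. For cancer 2 it stood at 0.413 FPKM in the CRC culture and 0.122 FPKM in the EpiC culture, against 0.558 FPKM in the cancer. No library of the first table exceeded 0.856 FPKM. Primary cancer 1 had 325-fold more than primary cancer 2, with 1 library each and no test. As groups of 2 the log2 differences were −1.59 (SE 2.21) for CRC cultures and −3.93 (SE 2.21) for EpiC cultures minus primary cancers. They turned to 1.85 in CRC cultures without primary cancer 1 and to 0.41 without the CRC culture of cancer 2. Of the 4 members tested (Sox4, Sox7, Sox9 and Sox10) limma called 0 against the cancers, and 0 had an unadjusted p under 0.05. Sox10 passed the filter through primary cancer 1 and its CRC culture, and Sox7 through primary cancer 2. Of all 12266 genes 0.889% were called in the CRC cultures and 0.677% in the EpiC cultures, and 0.00815% when CRC cultures were set against EpiC cultures. With 2 libraries a group, a gene that was not called is not shown to be at equal levels.

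Primary cancer 1 also held more Sox5 and Sox6, of SoxD, and more Sox8, the third SoxE gene. Sox13, the other SoxD gene, did not share this order, at 4.97 FPKM in cancer 1 and 8.11 FPKM in cancer 2. Sox5 was 2.60 FPKM in cancer 1 and 0.178 FPKM in cancer 2, and Sox6 was 1.86 and 0.0128 FPKM. Sox8 was at most 0.0906 FPKM in the 4 cultures, against 11.2 FPKM in cancer 1 and a listed 0 in cancer 2. Sox9 varied far less than Sox10. It stood at 54.1 and 82.3 FPKM in the CRC cultures of cancers 1 and 2 and 40.2 and 49.9 FPKM in the EpiC cultures, against 46.1 and 30.8 FPKM in the cancers. The value of 82.3 FPKM is from the library with the highest FPKM sum.

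Cartilage RNAs were abundant in the same cancer. Summed FPKM of 12 chondrocyte markers was 15.2 to 33.6 in the 4 cultures, against 426.7 in primary cancer 1 and 1.91 in primary cancer 2. Different markers made up these sums. Matn1 was listed at 0 in both cancers. It stood at 10.9 and 29.8 FPKM in the CRC cultures and 13.1 and 9.45 FPKM in the EpiC cultures of cancers 1 and 2. Acan reached 15.2 FPKM in the EpiC culture of cancer 2. Matn3 and Hapln1 were near 0 in cancer 1, at 0.0516 and 0.0299 FPKM. Col9a2 stood at 146 FPKM in cancer 1 and 0.0689 in cancer 2. Lect1 (chondromodulin), Col9a1, Col9a3 and Col11a1 had 96.2, 62.6, 48.7 and 40.1 FPKM in cancer 1 and at most 0.848 FPKM in cancer 2. Col2a1 and Acan, the collagen and proteoglycan that define hyaline cartilage, were at 5.39 and 8.55 FPKM in cancer 1, against 0 and 0.132 FPKM in cancer 2. Of 13 SOX10 targets in neural crest, 8 were higher in cancer 1, 3 were higher in cancer 2 (Erbb3, Ngfr and Pmp22) and 2 were at 0 in both. The share of all genes higher in cancer 1 was not counted, so nothing is read from such counts. Of all genes, 12408 reached 1 FPKM in cancer 1 and 11397 in cancer 2. Mia had 112 FPKM and S100b 6.31 FPKM in cancer 1, against 0.0965 and 0.168 FPKM in cancer 2. The receptor Erbb3 was at 12.97 FPKM in cancer 1 and 20.7 FPKM in cancer 2. The myelin gene Pmp22 was at 6.18 and 10.8 FPKM. Of 12 Schwann and melanocyte markers 8 were higher in cancer 1 and 3 in cancer 2, and Mbp, a myelin protein, was at 10.7 and 12.4 FPKM. The part of any cartilage or neural crest cells in these Sox levels was not tested. Between the groups of 2, 1 of 7 tested cartilage targets was called in the CRC cultures (Matn1, higher) and 0 of 7 in the EpiC cultures, where 1 had an unadjusted p under 0.05 (limma).

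**Figure D4:**
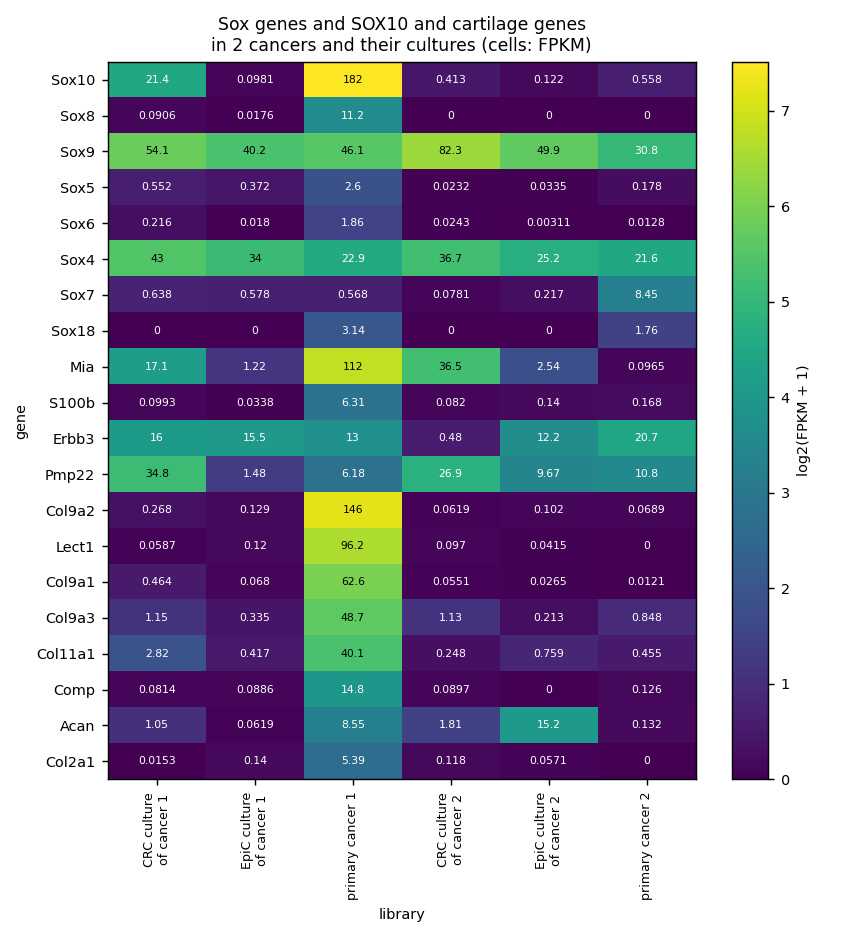
Levels of selected Sox genes, SOX10 targets and cartilage genes (rows) in the 6 libraries of the second table (columns). Colour is log2(FPKM + 1) and the number in each cell is FPKM. The cartilage markers Col11a2, Matn1, Matn3 and Hapln1 are not shown. Matn1, Matn3 and Hapln1 were at most 0.0516 FPKM in primary cancer 1. Primary cancer 1 holds Sox10 at 181.6 FPKM and Col9a2 at 146 FPKM, and primary cancer 2 holds them at 0.558 and 0.0689 FPKM.

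In the cultures of the first table Sox10 was low but ranked by medium, on values of unknown counting error. It was 0.0748, 0.531 and 0.856 FPKM in CYP19A1, Brca1het and Brca1hom CRC cultures, against 0.061, 0.0487 and 0 FPKM in the EpiC cultures. In allografts the media overlapped, at 0 to 0.585 FPKM in CRC and 0.0998 to 0.146 FPKM in EpiC. Sox6 showed the same order, at 0.0884 to 0.123 FPKM in CRC cultures and at most 0.0274 FPKM in EpiC cultures. Sox5 had the reverse, at 0.160 to 0.201 FPKM in CRC cultures and 0.736 to 2.03 FPKM in EpiC cultures, the highest in the Brca1hom EpiC culture. In the cultures, 4 of the 10 Sox genes thus lay wholly above in CRC (Sox6, Sox9, Sox10 and Sox11) and 1 wholly below (Sox5), where 26.7% and 23.7% of the 11837 genes tested did. Sox5, Sox6 and Sox10 were not among the tested. Apart from the 10, 6 of the 13 SOX10 targets in neural crest were tested in these cultures. Limma called 1, Mia, and 4 had an unadjusted p under 0.05. The median log2 difference over the 6, CRC minus EpiC, was −0.78, beside 0.04 over all genes tested. Mia passed the filter through the CRC cultures. It rose there, at 21.95 ± 20.2 FPKM against 0.099 ± 0.086 FPKM in EpiC cultures (SD, n = 3 each, limma adjusted p = 0.0251).

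The SoxF genes Sox18 and Sox17 were found in tissue and hardly in dishes. Sox18 ran from 2.83 to 10.6 FPKM, with a median of 4.65 FPKM, in the 7 CRC allografts and stood at 1.38, 5.48 and 3.08 FPKM in EpiC allografts 7B, 4C and 5A. It was at most 0.214 FPKM in the CRC cultures and 0.0534 FPKM in the EpiC cultures, and allografts and cultures did not overlap. The log2 difference of Sox18 from the cultures was 2.52 (SE 0.32) in CRC and 1.77 (SE 0.39) in EpiC.

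Sox17 was lower, at 0.214 to 0.850 FPKM in CRC allografts and 0.297 to 1.36 FPKM in EpiC allografts. It was 0 in 5 of the 6 cultures and 0.0206 FPKM in the Brca1hom EpiC culture. Both genes were listed at 0 in the 4 cultures of cancers, against 0.235 and 0.256 FPKM of Sox17 and 3.14 and 1.76 FPKM of Sox18 in primary cancers 1 and 2. Sox17 was 0.269, 0.214 and 0.409 FPKM in Brca1hom CRC allografts 1, 2 and 12 and 0.581, 0.492 and 0.808 FPKM in Brca1het CRC allografts 10B, 10C and 11C, without overlap.

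These levels moved with endothelial RNA. The summed FPKM of 15 endothelial markers was 125.5 to 345.6 in CRC allografts, 107.7 to 280.5 in EpiC allografts, 11.8 to 18.6 in CRC cultures and 22.6 to 37.4 in EpiC cultures. Of the 15 markers 14 rose in CRC allografts and 10 in EpiC allografts, beside 39.6% and 14.2% of all genes called in either direction. Their median log2 differences were 2.78 and 1.90, beside 0.04 and 0.01 over all genes tested. Per 100 FPKM of that sum, Sox18 was 1.28 to 3.35 FPKM and Sox17 0.148 to 0.484 FPKM over the 10 allografts. By genotype the endothelial sum was 125.5 to 211.4 in Brca1hom CRC allografts and 209.7 to 345.6 in Brca1het CRC allografts, so the lower range of Sox17 came with the lower range of these markers. The part of endothelial content in these differences was not tested.

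Sox7, unlike the other two, was present in cultures. It stood at 0.575 to 2.31 FPKM in CRC allografts, 0.498, 3.58 and 5.42 FPKM in EpiC allografts 7B, 4C and 5A, 0.972 to 1.44 FPKM in CRC cultures, and 1.69, 2.48 and 0.273 FPKM in the CYP19A1, Brca1het and Brca1hom EpiC cultures. All cultures but the Brca1hom EpiC culture thus lay within the range of the grafts. Per 100 FPKM of the endothelial sum it was 0.413 to 0.992 FPKM in CRC allografts and 7.71 to 8.38 FPKM in CRC cultures. In EpiC these ranges overlapped, at 0.463 to 3.65 FPKM in allografts and 0.729 to 10.98 FPKM in cultures. In the primary cancers it ran from 0.531 to 7.62 FPKM. In the second table the Sox7 level itself was 0.0781 to 0.638 FPKM in the 4 cultures, against 0.568 FPKM in primary cancer 1 and 8.45 FPKM in primary cancer 2, which stood out.

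**Figure D5:**
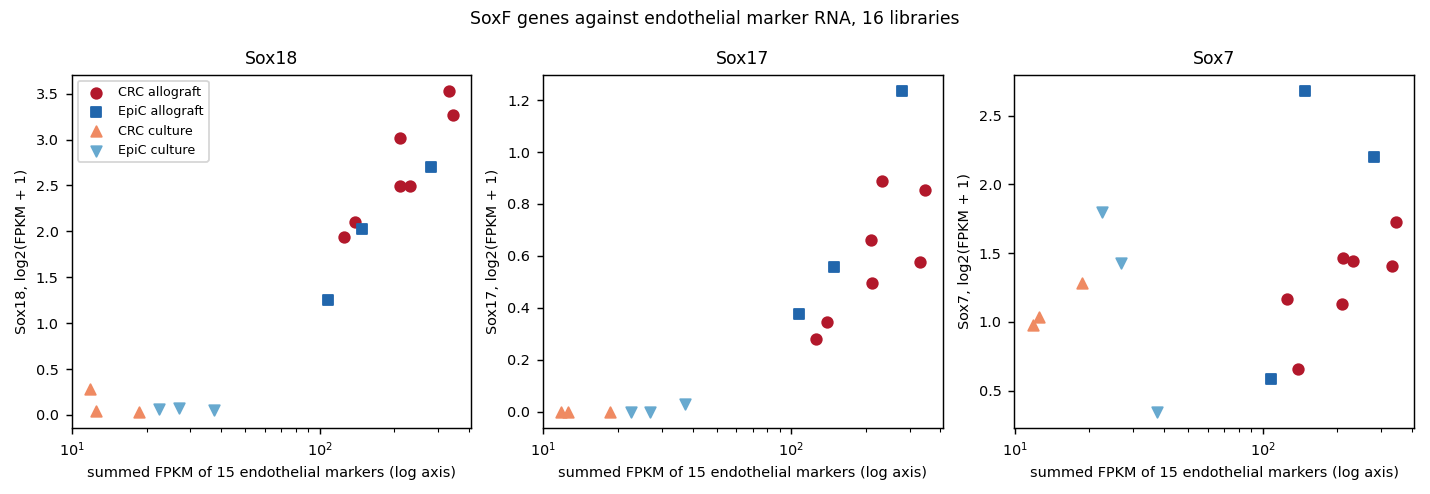
Level of Sox18, Sox17 and Sox7 (y axes, log2(FPKM + 1)) against the summed FPKM of 15 endothelial markers (x axes, logarithmic) in the 16 libraries of the first table; symbols mark the groups. Allografts lie at sums of 107.7 to 345.6 and cultures at 11.8 to 37.4, and Sox7 alone of the 3 genes overlaps between them.

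Of the Sox genes outside the 10, Sox15 and Sox21 differed by medium in the first table. Sox15, the SoxG gene, known from muscle regeneration and placenta, stood at 19.4, 15.005 and 6.06 FPKM in the CYP19A1, Brca1het and Brca1hom CRC cultures, against 0, 0.0642 and 0.0578 FPKM in the EpiC cultures. It rose in CRC by 3.67 log2 units (SE 0.37, limma adjusted p = 0.0105), in 3 of 3 genotypes. It passed the filter through the CRC cultures alone, and it was also called without a filter. It fell in CRC allografts, where it was at most 0.367 FPKM, by 3.53 log2 units (SE 0.27, limma adjusted p = 2.21e-07). EpiC allografts minus EpiC cultures gave 0.10 (SE 0.32), and the difference of these differences was −3.63 (SE 0.42, limma adjusted p = 8.01e-05). Both the CRC graft call and that of the interaction held in every alternative run, 21 and 20 in number.

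Sox21, a SoxB2 repressor, was likewise highest in CRC cultures. It stood at 3.72, 5.61 and 3.67 FPKM in the CRC cultures, against 1.06, 0.580 and 0 FPKM in the EpiC cultures, and rose by 1.83 log2 units (SE 0.29, limma adjusted p = 0.0229). In CRC allografts it was 0.414 to 1.74 FPKM and fell by 1.45 log2 units (SE 0.27, limma adjusted p = 0.000796). Like Sox15, Sox21 passed the filter through the CRC cultures, with a mean of 4.33 FPKM there. Its means in the other groups of the first table were at most 0.892 FPKM. Its difference of differences was −1.24 (SE 0.42, limma adjusted p = 0.0723). The culture calls of Sox15 and Sox21 both ended without the CYP19A1 CRC culture (adjusted p = 0.0522 for each), without the Brca1het CRC culture (0.083 and 0.138) and without the Brca1het EpiC culture (0.0754 and 0.127), over limma ranges of 0.00187 to 0.083 for Sox15 and 0.00928 to 0.138 for Sox21.

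Cultures of the cancers were mixed, with more of both genes in CRC for cancer 2 and more in EpiC for cancer 1. Sox15 was at 0.697 and 1.83 FPKM in the CRC cultures of cancers 1 and 2, against 2.63 and 0.466 FPKM in the EpiC cultures. Sox21 was at 1.91 and 0.798 FPKM in the CRC cultures of cancers, against 3.08 and 0.420 FPKM in the EpiC cultures.

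Sox12 and Sox13, of SoxC and SoxD, did not pass the test in any comparison of the full fits. Among the alternatives Sox12 was called in 2 of 21 for EpiC grafts and 1 of 21 for the difference of differences, and Sox13 in 1 of 10 in cultures. Sox12 averaged 5.41 FPKM in CRC allografts, 2.92 FPKM in EpiC allografts, 3.98 FPKM in CRC cultures and 7.87 FPKM in EpiC cultures, and its EpiC graft difference was −1.48 (SE 0.51, limma adjusted p = 0.0675). Sox13 averaged 1.75, 1.02, 2.24 and 0.595 FPKM in the same 4 groups, and its culture difference was 1.06 (SE 0.29, limma adjusted p = 0.0625). Sox14, a SoxB2 gene, stood at 6.24 FPKM in primary cancer 1 and was listed at 0 in primary cancer 2. Sox1, Sox3 and Sry were listed at 0 in all libraries of both tables, and Sox30 was at most 0.0902 FPKM.

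The TCF/LEF relatives share the high mobility group domain and mediate Wnt signals. Of 4 tested in cultures 1 fell in CRC, Tcf7l1, at 2.48 ± 0.89 FPKM in CRC cultures and 9.48 ± 4.75 FPKM in EpiC cultures (SD, n = 3 each), where 23.2% of all genes tested were called. Of the same 4, 2 rose in CRC allografts against CRC cultures, Tcf7l1 and Tcf7l2, beside 39.6% of all genes tested, and limma called 0 in EpiC allografts, with 0 at an unadjusted p under 0.05.

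Across the 16 libraries of the first table, the genes most like each Sox gene were ranked by Pearson correlation of log2(FPKM + 1) over 12315 genes, as a description, since cultures and allografts form separate clusters. For Sox18 they were the endothelial genes Tie1 (0.987) and Dll4 (0.986) and then Tmem204 (0.984). For Sox11 they were Padi3 (0.945), Kif5b (0.863) and Stard4 (0.858), and for Sox4 Ror1 (0.927), Foxo3 (0.895) and Pcbp3 (0.887). Kcnab1 (0.876) and Foxf1 (0.866) led for Sox2, Hbegf (0.888) for Sox7 and Acly (0.843) for Sox9. Thus Sox18 had near neighbours, and Sox9 had the weakest first neighbour of the 6 Sox genes ranked.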

How the data were processed

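Gene expression was read from 2 deposited tables of FPKM for 22 mouse libraries (poly(A) RNA, TruSeq, paired-end HiSeq, per the labels' protocols). Per the submitters' processing notes, FastQC, Trim Galore, TopHat and Cufflinks were used with build mm9; versions, annotation and strand use were not stated in the sources used here. The tables were normalised separately, so tests stay within 1. In the second, 407 of 23735 rows shared 162 symbols and were summed; none was a Sox gene. There 6 of 3508 genes at 10 FPKM or more throughout the first table are listed at 0 in some library, so a 0 may be a missing estimate. Steps between low values put the worth of 1 fragment at 0.933 to 4.14 times that in CRC allograft 10B, roughly. None of 135 library pairs was identical (highest r 0.991).

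Log2(FPKM + 1) was fitted with limma 3.58.1 (R 4.3.3; lmFit, eBayes with trend) over all genes with mean FPKM of at least 1, and genes were called where the Benjamini-Hochberg adjusted p was under 0.05. The log2 scale with a pseudocount of 1 understates changes of low genes. Genotype was in the models of the first table, which pairs the cultures, except for the comparison of Brca1 genotypes. The 16 libraries entered 1 fit for grafts against cultures. Residual degrees of freedom were 2 to 10. In the second table same-numbered libraries come from 1 cancer per their titles; their deviations from group means correlated at −0.0555 (cancer and CRC), −0.113 (cancer and EpiC) and 0.242 (CRC and EpiC). The model was tested on simulated data.

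The Sox genes and the 17 lists were chosen with earlier results of these data known. All 10 Sox genes are named, other Sox genes with a group mean of at least 1 FPKM, and the called members of lists with the largest differences. Sox2ot and single cartilage or partner genes outside that rule were chosen after their values were seen. The alternatives tried were median-ratio rescaling, a pseudocount of 0.1, a filter at 5 FPKM or none, no genotype or a block by cancer, and leaving out each library. The averaging of 10B and 10C was added after the data were seen.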

Additional observations from a re-analysis of the deposited data

Results flagged for a closer look

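Sox4 in CRC allograft 1 was far from the other CRC allografts, at 46.7 FPKM against 8.06 to 24.2 FPKM in the other 6; its gap was 0.583 of the range, above the 0.568 that 7 samples allow. All 10 Sox genes were screened in this way; they were chosen by these levels, so the gap is a description, and chance marks about 1 group in 20. The allograft minus culture difference of Sox9 differed between the media, with a log2 difference of differences of −2.23 (SE 0.48), given as a description for the same reason. That of Sox15, outside the 10, was −3.63 (SE 0.42, limma adjusted p = 8.01e-05).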

How the results depend on the processing

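Over 946 values for single Sox genes under alternatives, 31 of 214 calls were lost and 12 were gained; 25 of the lost and 7 of the gained ones were of the 10 Sox genes. The sign turned in 29, all of differences not called: 25 of the 10 Sox genes (Sox2, Sox4, Sox7, Sox9, Sox10 and Sox11) and 4 of others, Sox12 in CRC allografts against CRC cultures (without the Brca1het CRC culture), and in EpiC allografts against EpiC cultures Sox21 (without the CYP19A1 EpiC culture) and Sox15 (without the Brca1het EpiC culture or EpiC allograft 5A). With single libraries left out, these log2 differences ran from −0.11 to 0.40 for Sox12, from −0.46 to 0.0016 for Sox21 and from −0.11 to 0.25 for Sox15. None of the 3 was called there, and the cause was not tested. Genes called, against the full fit: in cultures (2741) 1658 without a filter; in allografts by medium (1) 0 with a pseudocount of 0.1, without a filter, with a filter at 5 FPKM and with 10B and 10C averaged; in EpiC grafts against cultures (1750) 1154 and in the interaction (1506) 1000 at 5 FPKM. Against primary cancers, CRC cultures (109) had 284 without a filter, 59 at 5 FPKM and 58 with the replicate block by cancer, and EpiC cultures (83) had 284, 43 and 29. CRC against EpiC cultures of cancers (1) had 5 with a pseudocount of 0.1, 0 without a filter, 5 at 5 FPKM and 0 with the block. The block changed no Sox call.

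Of the 10 Sox genes, those called in cultures (1) were 0 with a pseudocount of 0.1, without a filter and at 5 FPKM. In CRC grafts against cultures (3) 1 was called at 5 FPKM, and in EpiC grafts (2) 1 without a filter, at 5 FPKM and without genotype (no replicate block). Against primary cancers (0) Sox17 and Sox18 were the 2 called without a filter in either kind of culture.

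Leaving out 1 library at a time gave 159 to 2091 genes and 0 Sox genes in cultures, 0 to 47 and 0 to 1 for medium in allografts, 3266 to 5600 and 1 to 4 for CRC grafts, 997 to 2200 and 0 to 2 for EpiC grafts, 760 to 2243 and 1 for the interaction, and 0 to 26 and 0 to 1 for genotype. In the second table it gave 0 to 272, 0 to 284 and 0 to 12 genes and 0 Sox genes. Where an arm was left with 1 sample, that sample is assumed to vary like the other groups. FPKM give no depth, so low values such as those of Sox6 carry an unknown counting error.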
